A study of Mus musculus with 12 samples.

Results

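The genes described here are 48 transporters and uptake receptors of the small intestine, listed by name: carriers of sugars, amino acids, peptides, carboxylates, phosphate, sulfate, ions, vitamins, nucleosides, organic cations and metals. For each, the probe set carrying that symbol alone was taken (the brightest where there were several), which gave values for 47 of the 48, among 19938 genes measured in all; Slc19a3, a thiamine carrier, was not analysed here. The samples were 12 expression arrays of whole jejunum, the middle stretch of the small intestine, with 1 mouse per array: 2 Fgfr1op KO mice and 2 wild-type (WT) mice at each of days 6, 9 and 12 of a time scale the labels call post-tamoxifen. The knockout was inducible, and the labels' protocols describe abdominal tamoxifen injections on 5 days in a row, each of 75 mg per kg. Fgfr1op, now named Cep43, encodes a centrosomal protein, and the series addresses a centrosomal defect of intestinal stem cells in relation to Crohn's disease. The labels give the same post-tamoxifen days for WT mice; the labels name neither the cells that express the recombinase nor whether WT mice carried it, and give no age, sex or strain. Values are log2 signals as deposited, so a difference of 1 is a doubling of signal.

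Absorption in the small intestine runs through enterocytes, the columnar cells that cover the villi. Carriers in their brush border, the microvillus membrane facing the lumen, take up nutrients, often with sodium or protons, and other carriers in the basolateral membrane pass them to the blood. These cells are replaced every few days from stem cells in the crypts, and transporter expression increases as cells leave the crypt and mature. Many of the carriers belong to the solute carrier (Slc) families, named by number.

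Because RNA came from whole tissue, fewer enterocytes and less transporter RNA per enterocyte cannot be told apart. General epithelial markers gave a partial view. Their mean over 8 genes was 11.78 and 11.78 in KO against 11.59 and 11.49 in WT at day 6, 12.04 and 12.04 in KO against 11.70 and 11.74 in WT at day 9, and 11.88 and 11.68 in KO against 11.70 and 11.57 in WT at day 12. At day 9, 3 of the 8 rose (the keratins Krt8, Krt18 and Krt19), the brush border protein Vil1 fell, and Epcam, Cdh1, Krt20 and Cldn7 did not pass. At days 6 and 9 both KO arrays lay above both WT arrays in this mean, and at day 12 the groups overlapped. Of 9 enterocyte markers, 1 fell at day 6, 5 fell and 0 rose at day 9, and 6 fell and 1 rose at day 12. The medians of these 9 were -0.01, -0.31 and -0.82 on the 3 days. The lactase gene Lct fell on each day and had the largest fall of the 9 at day 9, at -5.59 (SE 0.19). Alpi, the marker that rose at day 12, averaged 12.91 in KO against 12.49 in WT on that day. Markers of smooth muscle, from the gut wall, had a mean over 10 genes of 8.03 and 7.83 in KO against 9.73 and 9.04 in WT at day 6, 9.35 and 8.22 in KO against 8.38 and 9.12 in WT at day 9, and 9.94 and 9.40 in KO against 9.18 and 9.27 in WT at day 12. Both KO arrays of day 6 lay below all other arrays in muscle signal. Markers of position along the gut did not move as 1 set: of 4 from the proximal intestine, 3 rose and 1 fell at days 9 and 12, and of 3 ileal markers, Slc10a2 rose and Osr2 fell. The third ileal marker, Fabp6, did not pass, and read 5.79 and 9.02 in the 2 WT arrays of day 6. Of 4 colon markers, Car4 fell at days 9 and 12, with differences of -3.08 and -3.22, and 3 did not pass. Of 6 immune markers, 1 fell at day 9 and 6 at day 12. Of 6 fibroblast markers, 3 rose and 0 fell on each of these days, with medians of 0.55 and 0.53. The part of these lists in the transporter values was not tested. The targeted gene, Cep43, fell at day 9 by 0.39 (SE 0.11, limma adjusted p = 0.0184). It differed by -0.31 at day 6 and -0.09 at day 12 without passing. Averaged over days it differed by -0.26 (SE 0.06, limma adjusted p = 0.00713). Whether the probe set lies outside the deleted part was not tested.

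Genotypes were compared within each day with limma, with 2 mice per genotype and 1 estimate of the spread over all 12 arrays, and a gene passed at an adjusted p under 0.05 over all 19938 genes. Among the transporters, 6 of 47 fell and 0 rose at day 6, 38 fell and 3 rose at day 9, and 34 fell and 3 rose at day 12. Over all genes, 0.431% fell and 0.597% rose at day 6, 17.1% fell and 12.6% rose at day 9, and 13.7% fell and 13.7% rose at day 12. Averaged over days, 38 transporters fell and 3 rose, against 16.9% and 15.7% of all genes. The limma F test for a genotype difference that changes with day passed for 38, against 18.5%. From day 6 to day 9 the difference moved down for 32 and up for 0, against 9.19% and 3.52% of all genes, and from day 9 to day 12 down for 3 and up for 4, against 2.02% and 4.06%. The median log2 difference over the 47 was -0.11, -1.69 and -1.37 on the 3 days, beside 0.00, 0.02 and 0.02 over all genes. Both KO arrays lay below both WT arrays for 20 transporters at day 6, 40 at day 9 and 39 at day 12, against 20.9%, 31.1% and 26.6% of all genes, and above them for 7, 6 and 4, against 23.7%, 34.6% and 31.6%. For 33 transporters the 4 KO arrays of days 9 and 12 all lay below the 6 WT arrays, and for 2, Slc20a1 and Slc20a2, they all lay above them (11.7% and 10.2% of all genes). After quantile normalization the calls over all genes at day 9 turned to 3157 higher of 5982, against 2505 higher of 5917 as deposited, and the transporters to 36 lower and 4 higher. With the epithelial marker mean as a covariate, an alternative chosen after seeing the data, 17 transporters fell and 0 rose at day 9, and 32 fell and 3 rose at day 12. Over all genes the share called with this covariate was 5.88% at day 9 and 21.2% at day 12, against 29.7% and 27.3% without it. The markers in that mean include Krt8, Krt18 and Krt19, which differed by 0.84 (SE 0.13), 1.71 (SE 0.16) and 0.37 (SE 0.10) at day 9. Where either group averaged under a log2 signal of 6 the fold is left out, since signals were not tested against background.

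**Figure D1:**
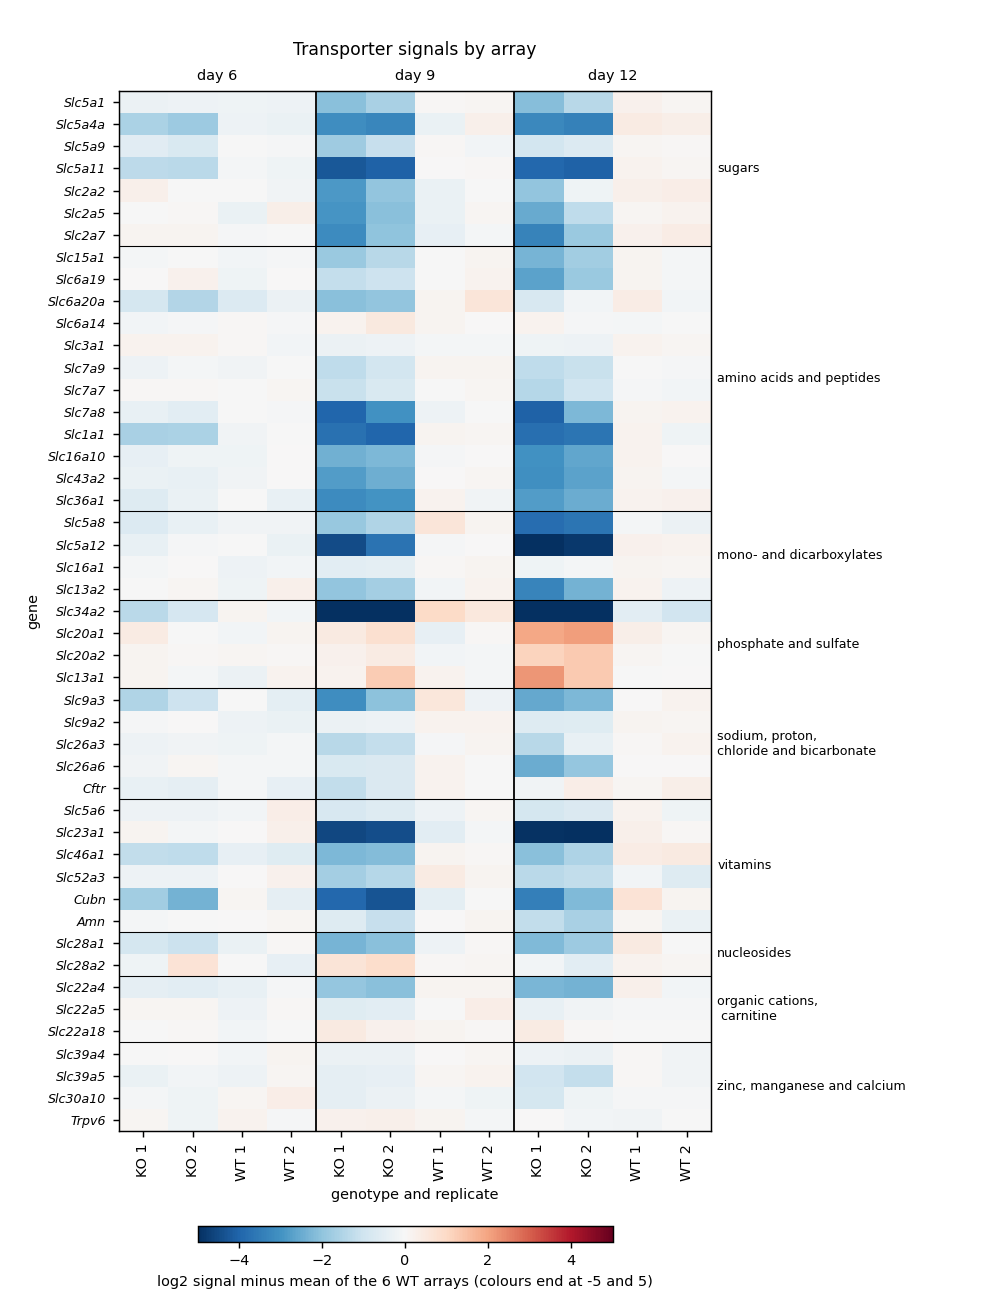
Log2 signal of the 47 measured transporters (rows, by substrate) on each of the 12 arrays (columns, by day, KO left of WT), shown as the difference from the mean of the 6 WT arrays. KO columns of days 9 and 12 are blue in most rows; the rows of Slc20a1, Slc20a2 and Slc13a1 are red there at day 12.

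The RefSeq promoter windows of 3 transporters are shown: Slc34a2 with the largest fall at day 9, Slc20a1 with the largest rise, and Slc5a1, the main carrier of glucose, chosen by name. Slc34a2 and Slc20a1 both carry phosphate with sodium. Each window holds 250 bases before and, in capitals, 50 bases from the annotated start (build GRCm38.p6, all on the plus strand): Slc34a2 at chr5:53049103-53049402, Slc20a1 at chr2:129198523-129198822 and Slc5a1 at chr5:33103969-33104268.
Slc34a2: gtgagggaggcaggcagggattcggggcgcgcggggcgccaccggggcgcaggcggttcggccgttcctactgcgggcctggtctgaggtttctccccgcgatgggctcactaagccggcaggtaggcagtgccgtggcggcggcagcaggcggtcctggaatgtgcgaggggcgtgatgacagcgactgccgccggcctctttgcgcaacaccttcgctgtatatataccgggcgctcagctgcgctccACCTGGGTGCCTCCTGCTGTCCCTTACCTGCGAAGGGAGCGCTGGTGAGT
Slc20a1: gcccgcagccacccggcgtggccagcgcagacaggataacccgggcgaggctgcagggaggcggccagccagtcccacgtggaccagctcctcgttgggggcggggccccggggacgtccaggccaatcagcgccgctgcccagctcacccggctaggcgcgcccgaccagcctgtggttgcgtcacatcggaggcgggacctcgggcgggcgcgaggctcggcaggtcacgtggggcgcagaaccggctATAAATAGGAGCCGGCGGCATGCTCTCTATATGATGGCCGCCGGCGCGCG
Slc5a1: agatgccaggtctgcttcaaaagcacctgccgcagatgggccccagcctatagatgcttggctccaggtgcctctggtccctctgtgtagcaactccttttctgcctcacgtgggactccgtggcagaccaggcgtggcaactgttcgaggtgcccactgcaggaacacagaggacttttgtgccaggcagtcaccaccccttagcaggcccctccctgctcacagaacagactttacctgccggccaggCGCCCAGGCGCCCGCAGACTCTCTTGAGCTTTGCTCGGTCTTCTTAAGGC
G and C made up 68.7% of the Slc34a2 window, 73.0% of the Slc20a1 window and 60.3% of the Slc5a1 window, against a median of 58.3% over the 40 transporters with a promoter in the tables and 52.7% over 27025 annotated genes. Motifs of enterocyte transcription factors were searched on both strands in the first listed window of each gene: a motif of HNF1 given by name alone, CAAAGTCCA for HNF4, AGATAA for GATA and TTTATG for CDX. None of the 3 printed windows held any of these letters. Among the 40 transporters, the HNF1 motif was found in 1 (Slc26a3), HNF4 in 2 (Slc3a1 and Trpv6), GATA in 4 and CDX in 1, against 0.44%, 0.48%, 11.41% and 12.15% of all genes. Of the 32 of these 40 that fell at day 9, 1 held HNF1, 0 held HNF4, 1 held GATA and 0 held CDX.

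Sugar carriers fell as a group from day 9 on, and a pair of them was already lower at day 6. All 7 fell at days 9 and 12, with medians of -2.32 and -2.02, and 2 fell at day 6. Slc5a1, the brush border cotransporter of sodium with glucose and galactose, had signals of 12.47 and 12.48 in KO against 12.55 and 12.51 in WT at day 6. Slc5a1 at day 9 had 10.64 and 11.14 in KO against 12.79 and 12.83 in WT, and at day 12 10.63 and 11.36 in KO against 12.97 and 12.84 in WT. At day 6 the KO arrays lay just below WT, with a difference of -0.05 (SE 0.20), and the gap widened later, to -1.92 (SE 0.20, limma adjusted p = 3.76e-05, 3.79-fold lower) at day 9 and -1.91 (SE 0.20) at day 12. Slc2a2, the facilitative glucose carrier best known from the basolateral membrane, had 12.53 and 12.27 in KO against 12.26 and 12.11 in WT at day 6. Slc2a2 at day 9 had 9.41 and 10.32 in KO against 11.97 and 12.26 in WT, and at day 12 10.33 and 12.08 in KO against 12.53 and 12.62 in WT. KO replicate 2 of day 12 nearly reached the WT level, while replicate 1 lay far below it. The difference of Slc2a2 was -2.25 (SE 0.43, limma adjusted p = 0.00231, 4.76-fold lower) at day 9 and -1.37 (SE 0.43, limma adjusted p = 0.0355, 2.58-fold lower) at day 12, and without that replicate 1 it was -0.50 (limma adjusted p = 0.271) and without KO replicate 2 it was -2.24; the day 12 call also ended without either WT array of that day. The fructose carrier Slc2a5 differed by -2.41 (SE 0.36) and -2.02 (SE 0.36) at days 9 and 12, and its relative Slc2a7 by -2.32 (SE 0.41) and -2.91 (SE 0.41); their day 6 differences were 0.04 (SE 0.36) and 0.17 (SE 0.41).

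The early falls in this group were those of Slc5a11, a carrier of sodium with myo-inositol, and of Slc5a4a, a relative of Slc5a1. Slc5a11 had 8.24 and 8.21 in KO against 9.45 and 9.35 in WT at day 6. Slc5a11 at day 9 had 5.31 and 5.52 in KO against 9.56 and 9.62 in WT, and at day 12 5.62 and 5.51 in KO against 9.74 and 9.64 in WT. KO arrays lay below WT arrays on every day without overlap, with differences of -1.17 (SE 0.10, limma adjusted p = 0.000315, 2.26-fold lower) at day 6, -4.17 (SE 0.10) at day 9 and -4.12 (SE 0.10) at day 12. Slc5a4a had 7.09 and 6.85 in KO against 8.41 and 8.34 in WT at day 6. Slc5a4a at day 9 had 5.54 and 5.41 in KO against 8.31 and 8.90 in WT, and at day 12 5.45 and 5.28 in KO against 9.06 and 8.94 in WT. It too was below WT on each day, with differences of -1.41 (SE 0.17, limma adjusted p = 0.00305, 2.65-fold lower) at day 6, -3.13 (SE 0.17) at day 9 and -3.63 (SE 0.17) at day 12; the day 6 call ended without KO replicate 2 (-1.28, limma adjusted p = 0.062), and signal shared with its close copy Slc5a4b was not tested. Slc5a9, which carries mannose and fructose among other sugars, stood at -0.63 (SE 0.17) at day 6 (limma adjusted p = 0.141, or 0.0444 without either KO array of day 9) and differed by -1.41 (SE 0.17) at day 9 and -0.88 (SE 0.17) at day 12.

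**Figure D2:**
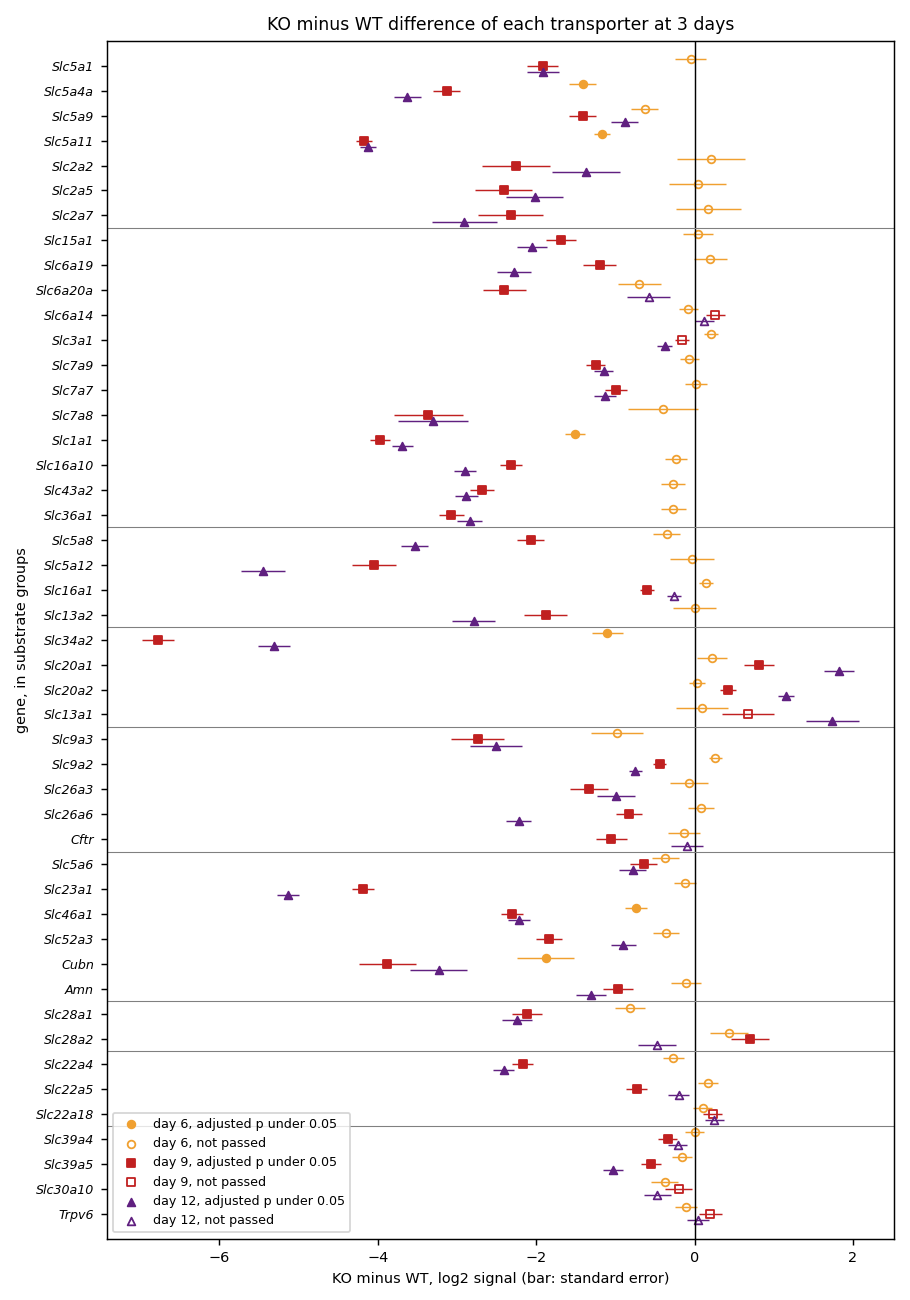
KO minus WT difference of log2 signal (horizontal axis) for each of the 47 transporters (rows, in substrate groups) at days 6, 9 and 12; bars are standard errors, filled symbols passed an adjusted p under 0.05. At day 6, 6 symbols are filled, while symbols reach -6.77 for Slc34a2 at day 9 and -5.45 for Slc5a12 at day 12.

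Carriers of amino acids and peptides fell with sizes that differed widely between genes. Of 12 measured, 1 fell at day 6, 10 at day 9 and 10 at day 12, and 0 rose on any day; the medians were -0.16, -2.00 and -2.16. Slc1a1, the brush border carrier of glutamate and aspartate, had 7.29 and 7.35 in KO against 8.75 and 8.91 in WT at day 6. Slc1a1 at day 9 had 5.17 and 4.96 in KO against 9.06 and 9.01 in WT, and at day 12 5.15 and 5.25 in KO against 9.08 and 8.70 in WT. Its KO arrays were lower from the first day, with differences of -1.51 (SE 0.13, limma adjusted p = 0.000318, 2.85-fold lower) at day 6, -3.97 (SE 0.13) at day 9 and -3.69 (SE 0.13) at day 12. Slc7a8, the light chain of a basolateral exchanger of neutral amino acids, had 11.47 and 11.31 in KO against 11.81 and 11.78 in WT at day 6. Slc7a8 at day 9 had 7.87 and 8.82 in KO against 11.59 and 11.81 in WT, and at day 12 7.80 and 9.59 in KO against 11.97 and 12.01 in WT. Groups did not overlap on any day, yet the day 6 difference of -0.40 (SE 0.44) did not pass; those of days 9 and 12 were -3.36 (SE 0.44, limma adjusted p = 0.000176, 10.2-fold lower) and -3.30 (SE 0.44, limma adjusted p = 0.000171, 9.82-fold lower). The 2 KO arrays of Slc7a8 at day 12 were 1.79 apart, the widest gap between replicates among the 47.

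The proton-coupled carrier of small amino acids Slc36a1 had 9.43 and 9.75 in KO against 10.05 and 9.68 in WT at day 6. Slc36a1 at day 9 had 6.94 and 7.08 in KO against 10.24 and 9.91 in WT, and at day 12 7.27 and 7.58 in KO against 10.24 and 10.28 in WT. It differed by -3.07 (SE 0.16, limma adjusted p = 2.75e-07, 8.38-fold lower) at day 9 and by -2.84 (SE 0.16) at day 12, with both KO arrays far below WT on these days. A pair of further basolateral carriers with no sodium requirement, Slc43a2 for branched-chain and aromatic amino acids and Slc16a10 for aromatic amino acids, differed by -2.68 (SE 0.15) and -2.32 (SE 0.14) at day 9 and by -2.88 (SE 0.15) and -2.90 (SE 0.14) at day 12. Slc15a1, the proton-coupled carrier of di- and tripeptides, had 12.62 and 12.69 in KO against 12.56 and 12.66 in WT at day 6. Slc15a1 at day 9 had 10.86 and 11.30 in KO against 12.70 and 12.83 in WT, and at day 12 10.37 and 10.98 in KO against 12.84 and 12.61 in WT. KO and WT overlapped at day 6 and separated later, with differences of -1.69 (SE 0.19, limma adjusted p = 5.29e-05, 3.22-fold lower) at day 9 and -2.05 (SE 0.19, limma adjusted p = 9.69e-06, 4.13-fold lower) at day 12. Slc6a19, the main brush border carrier of neutral amino acids, had 11.02 and 11.22 in KO against 10.79 and 11.05 in WT at day 6. Slc6a19 at day 9 had 9.82 and 9.96 in KO against 11.00 and 11.17 in WT, and at day 12 8.33 and 9.17 in KO against 11.13 and 10.93 in WT. Its difference was -1.20 (SE 0.21, limma adjusted p = 0.00145, 2.29-fold lower) at day 9 and -2.28 (SE 0.21, limma adjusted p = 1.17e-05, 4.86-fold lower) at day 12; the change between these differences did not pass (-1.08, limma adjusted p = 0.0587), while within KO it fell by 1.14 between these days (SE 0.21, limma adjusted p = 0.00417).

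The brush border exchanger of cystine and basic amino acids has a light chain, Slc7a9, and a heavy chain, Slc3a1. Slc7a9 had 10.48 and 10.60 in KO against 10.53 and 10.70 in WT at day 6. Slc7a9 at day 9 had 9.44 and 9.78 in KO against 10.87 and 10.86 in WT, and at day 12 9.43 and 9.60 in KO against 10.69 and 10.64 in WT. The light chain thus separated at both later days, below WT. Slc3a1 had 11.88 and 11.90 in KO against 11.78 and 11.58 in WT at day 6. Slc3a1 at day 9 had 11.43 and 11.47 in KO against 11.63 and 11.60 in WT, and at day 12 11.48 and 11.45 in KO against 11.87 and 11.81 in WT. The light chain differed by -1.25 (SE 0.12) at day 9 and -1.15 (SE 0.12) at day 12, while the heavy chain stood at -0.16 (SE 0.09) at day 9 (limma adjusted p = 0.22) and differed by -0.38 (SE 0.09) at day 12, a call that ended without WT replicate 1 of that day (-0.35, limma adjusted p = 0.0632); the difference between the genes was not tested. Slc7a7, light chain of the basolateral exchanger of basic amino acids, differed by -0.99 (SE 0.14) at day 9 and -1.13 (SE 0.14) at day 12, and Slc3a2, the heavy chain it shares with Slc7a8, differed by -0.44 (SE 0.11) and by -0.25 (SE 0.11) (limma adjusted p = 0.114).

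Slc6a20a, a carrier of proline and other imino acids, had 9.50 and 8.91 in KO against 9.71 and 10.09 in WT at day 6. Slc6a20a at day 9 had 8.31 and 8.41 in KO against 10.52 and 11.00 in WT, and at day 12 9.58 and 10.27 in KO against 10.76 and 10.25 in WT. Day 12 KO arrays overlapped WT again after clear separation at day 9: the difference was -2.40 (SE 0.27, limma adjusted p = 5.4e-05, 5.3-fold lower) at day 9 and -0.58 (SE 0.27) at day 12 (limma adjusted p = 0.14), and the change of the difference between these days passed (1.82, SE 0.38). Without KO replicate 2 of day 12 the day 12 difference passed (-0.93, limma adjusted p = 0.0338), and without KO replicate 1 it was -0.24. Signal shared with its copy Slc6a20b was not tested. Slc6a14, a broad carrier of neutral and basic amino acids found mostly in colon and lung, lay between 3.83 and 4.43 on all 12 arrays and passed on no day against WT.

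Within KO, the 3 sodium-coupled carboxylate carriers fell further between days 9 and 12. All 4 members fell at day 9 and 3 at day 12, with medians of -1.97 and -3.16, and 0 passed at day 6. Slc5a12, a low-affinity carrier of lactate and related monocarboxylates, had 11.14 and 11.45 in KO against 11.47 and 11.19 in WT at day 6. Slc5a12 at day 9 had 7.03 and 7.82 in KO against 11.43 and 11.53 in WT, and at day 12 5.80 and 6.69 in KO against 11.73 and 11.67 in WT. It overlapped WT at day 6 and then lay far below, with differences of -4.05 (SE 0.28, limma adjusted p = 1.42e-06, 16.6-fold lower) at day 9 and -5.45 (SE 0.28, limma adjusted p = 1.08e-07, 43.9-fold lower) at day 12. Slc5a8, its high-affinity relative, had 9.81 and 10.14 in KO against 10.32 and 10.32 in WT at day 6. Slc5a8 at day 9 had 8.61 and 8.98 in KO against 11.09 and 10.64 in WT, and at day 12 6.68 and 6.86 in KO against 10.38 and 10.21 in WT. Its difference was -2.07 (SE 0.17, limma adjusted p = 5.52e-06, 4.2-fold lower) at day 9 and -3.53 (SE 0.17, limma adjusted p = 7.16e-08, 11.5-fold lower) at day 12. Within KO, the change between days 9 and 12 was -2.03 for Slc5a8 (SE 0.17, limma adjusted p = 4.51e-05) and -1.18 for Slc5a12 (SE 0.28). Slc13a2, the sodium carrier of citrate and succinate, differed by -1.88 (SE 0.27) at day 9 and -2.79 (SE 0.27) at day 12. The change of the KO minus WT difference between these days passed for Slc5a8 (-1.46) and did not for Slc5a12 (-1.40, limma adjusted p = 0.0599) or Slc13a2 (-0.91, limma adjusted p = 0.196). Slc16a1, a proton-coupled monocarboxylate carrier present in most cells, had 9.13 and 9.24 in KO against 8.99 and 9.10 in WT at day 6. Slc16a1 at day 9 had 8.71 and 8.74 in KO against 9.29 and 9.37 in WT, and at day 12 9.02 and 9.15 in KO against 9.36 and 9.32 in WT. It fell at day 9, with a difference of -0.60 (SE 0.09), and did not pass at day 12, with -0.26 (SE 0.09) and a limma adjusted p of 0.0586; without KO replicate 2 of day 12 it passed (-0.33, limma adjusted p = 0.045).

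Phosphate and sulfate carriers split in direction. Of 4, 1 fell at day 6, 1 fell and 2 rose at day 9, and 1 fell and 3 rose at day 12. Slc34a2, the sodium phosphate cotransporter of the intestinal brush border, had 9.63 and 10.17 in KO against 11.13 and 10.87 in WT at day 6. Slc34a2 at day 9 had 5.05 and 4.87 in KO against 11.94 and 11.53 in WT, and at day 12 4.79 and 5.09 in KO against 10.45 and 10.05 in WT. All KO arrays lay below their WT arrays on every day, and the 4 of days 9 and 12 lay within 4.79 to 5.09. The differences were -1.10 (SE 0.20, limma adjusted p = 0.036, 2.15-fold lower) at day 6, -6.77 (SE 0.20) at day 9 and -5.31 (SE 0.20) at day 12. Leaving out any 1 array of day 6 ended the day 6 call (-1.37 to -0.83). Its WT arrays also varied most among the 47, from 10.05 to 11.94, and the change of 1.46 between the day 9 and day 12 differences (SE 0.29) came with WT signals of 11.94 and 11.53 at day 9 and 10.45 and 10.05 at day 12.

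Slc20a1 and Slc20a2 encode sodium phosphate cotransporters of a second family, which most cells express. Slc20a1 had 8.04 and 7.59 in KO against 7.46 and 7.73 in WT at day 6. Slc20a1 at day 9 had 8.08 and 8.41 in KO against 7.20 and 7.67 in WT, and at day 12 9.53 and 9.71 in KO against 7.92 and 7.69 in WT. Its groups overlapped at day 6 alone. Slc20a2 had 8.54 and 8.44 in KO against 8.48 and 8.44 in WT at day 6. Slc20a2 at day 9 had 8.59 and 8.79 in KO against 8.27 and 8.28 in WT, and at day 12 9.49 and 9.69 in KO against 8.50 and 8.37 in WT. Both were higher in KO without overlap at days 9 and 12 and rose further in KO between these days. Slc20a1 differed by 0.81 (SE 0.19, limma adjusted p = 0.00797, 1.75-fold higher) at day 9 and 1.82 (SE 0.19, limma adjusted p = 2.92e-05, 3.53-fold higher) at day 12. For Slc20a2 the differences were 0.42 (SE 0.10, limma adjusted p = 0.0111, 1.33-fold higher) and 1.15 (SE 0.10, limma adjusted p = 9.08e-06, 2.23-fold higher). The day 9 calls ended for both without KO replicate 2 (0.65 and 0.32) or WT replicate 1 (0.58 and 0.41) of that day, and for Slc20a2 also without WT replicate 2 (0.42). Slc13a1, a carrier of sodium with sulfate, had 7.73 and 7.51 in KO against 7.29 and 7.78 in WT at day 6. Slc13a1 at day 9 had 7.76 and 8.85 in KO against 7.77 and 7.51 in WT, and at day 12 9.79 and 8.88 in KO against 7.57 and 7.62 in WT. At day 9 KO replicate 1 lay within the WT range and replicate 2 above it, and without replicate 1 the day 9 difference passed (1.21, limma adjusted p = 0.0213); at day 12 both KO arrays were higher, with a difference of 1.74 (SE 0.33, limma adjusted p = 0.00218, 3.35-fold higher).

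**Figure D3:**
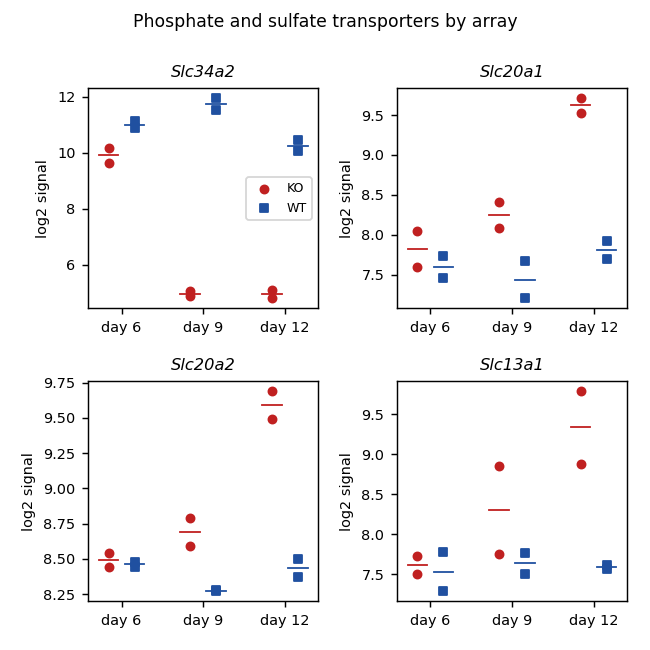
Log2 signal (vertical axes, a scale per gene) of Slc34a2, Slc20a1, Slc20a2 and Slc13a1 in each array at days 6, 9 and 12; circles are KO, squares WT, and lines group means of 2 mice. Slc34a2 lies near 5 in KO at days 9 and 12, while the other 3 are above WT at day 12.

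Ion exchangers and channels fell at day 9, 5 of 5, and 4 of 5 at day 12, with medians of -1.05 and -0.99; 0 passed at day 6. Slc9a3, the exchanger of sodium for protons in the brush border, had 9.51 and 9.98 in KO against 10.97 and 10.49 in WT at day 6. Slc9a3 at day 9 had 7.91 and 8.93 in KO against 11.57 and 10.73 in WT, and at day 12 8.42 and 8.77 in KO against 11.03 and 11.19 in WT. At day 6 the KO arrays lay below WT with a difference of -0.98 (SE 0.33) that did not pass (limma adjusted p = 0.239), and the differences were -2.74 (SE 0.33, limma adjusted p = 0.000101, 6.66-fold lower) at day 9 and -2.51 (SE 0.33, limma adjusted p = 0.00016, 5.7-fold lower) at day 12. Its relative Slc9a2 differed by -0.44 (SE 0.08) and -0.75 (SE 0.08). Slc26a6, which exchanges chloride for bicarbonate or oxalate, had 9.79 and 10.08 in KO against 9.86 and 9.85 in WT at day 6. Slc26a6 at day 9 had 9.21 and 9.23 in KO against 10.15 and 9.95 in WT, and at day 12 7.49 and 8.04 in KO against 9.98 and 9.99 in WT. The differences were -0.83 (SE 0.16, limma adjusted p = 0.00207, 1.78-fold lower) at day 9 and -2.22 (SE 0.16, limma adjusted p = 1.24e-06, 4.66-fold lower) at day 12, and the change between days passed (-1.39, SE 0.22). Slc26a3, the other chloride-bicarbonate exchanger, had 10.74 and 10.85 in KO against 10.80 and 10.93 in WT at day 6. Slc26a3 at day 9 had 9.61 and 9.83 in KO against 10.94 and 11.16 in WT, and at day 12 9.62 and 10.63 in KO against 11.05 and 11.17 in WT. It differed by -1.33 (SE 0.24) at day 9 and -0.99 (SE 0.24) at day 12, where KO replicate 2 stood closer to WT than replicate 1; the day 12 call ended without WT replicate 2 (-0.93, limma adjusted p = 0.0634), and leaving out KO replicate 1 gave -0.48, and leaving out replicate 2 gave -1.49. Cftr, the chloride channel of fluid secretion, had 9.38 and 9.31 in KO against 9.63 and 9.33 in WT at day 6. Cftr at day 9 had 8.50 and 9.04 in KO against 9.90 and 9.74 in WT, and at day 12 9.56 and 10.09 in KO against 9.84 and 10.02 in WT. It was lower at day 9, by a difference of -1.05 (SE 0.20), and overlapped WT at day 12, at -0.10 (SE 0.20).

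Vitamin uptake genes fell together: 6 of 6 measured at both later days, with medians of -2.07 and -1.77, and 2 of 6 at day 6. Slc23a1, the brush border carrier of vitamin C with sodium, had 10.71 and 10.50 in KO against 10.61 and 10.83 in WT at day 6. Slc23a1 at day 9 had 6.01 and 6.14 in KO against 10.06 and 10.48 in WT, and at day 12 5.63 and 5.60 in KO against 10.85 and 10.64 in WT. It overlapped WT at day 6 and was among the largest falls later, with -4.19 (SE 0.14, limma adjusted p = 1.08e-08, 18.2-fold lower) at day 9 and -5.13 (SE 0.14) at day 12. Slc46a1, the proton-coupled carrier of folate, had 7.12 and 7.09 in KO against 7.95 and 7.75 in WT at day 6. Slc46a1 at day 9 had 6.11 and 6.17 in KO against 8.49 and 8.40 in WT, and at day 12 6.28 and 6.81 in KO against 8.74 and 8.80 in WT. It was lower in both KO arrays on each day, with differences of -0.74 (SE 0.14, limma adjusted p = 0.0433, 1.67-fold lower) at day 6, -2.30 (SE 0.14, limma adjusted p = 7.94e-07, 4.94-fold lower) at day 9 and -2.22 (SE 0.14, limma adjusted p = 6.86e-07, 4.65-fold lower) at day 12. Leaving out any 1 array of days 6 or 9, or either WT array of day 12, ended its call at day 6 (-0.84 to -0.65). Slc52a3, a riboflavin carrier, differed by -1.84 (SE 0.16) at day 9 and -0.90 (SE 0.16) at day 12, and Slc5a6, which carries biotin and pantothenate, by -0.64 (SE 0.17) and -0.78 (SE 0.17). The Slc5a6 call ended at day 9 without KO replicate 1 (-0.57) or WT replicate 2 (-0.47), and at day 12 without WT replicate 1 (-0.60).

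Cubilin, Cubn, and amnionless, Amn, form the receptor that takes up vitamin B12 bound to intrinsic factor, a process placed mainly in the ileum. Cubn had 9.39 and 8.77 in KO against 11.23 and 10.69 in WT at day 6. Cubn at day 9 had 7.20 and 6.80 in KO against 10.64 and 11.11 in WT, and at day 12 7.70 and 8.93 in KO against 11.82 and 11.28 in WT. It was lower in KO on every day without overlap, with differences of -1.88 (SE 0.36, limma adjusted p = 0.0433, 3.69-fold lower) at day 6, -3.88 (SE 0.36, limma adjusted p = 1.56e-05, 14.7-fold lower) at day 9 and -3.23 (SE 0.36, limma adjusted p = 4.84e-05, 9.41-fold lower) at day 12, and the first of these calls was lost without any 1 array of days 6 or 9 or either WT array of day 12 (-2.19 to -1.57). Amn had 8.58 and 8.64 in KO against 8.67 and 8.77 in WT at day 6. Amn at day 9 had 8.02 and 7.49 in KO against 8.67 and 8.78 in WT, and at day 12 7.41 and 7.04 in KO against 8.76 and 8.31 in WT. It stood at -0.11 (SE 0.19) at day 6, -0.97 (SE 0.19, limma adjusted p = 0.00232, 1.96-fold lower) at day 9 and -1.31 (SE 0.19, limma adjusted p = 0.000276, 2.48-fold lower) at day 12. Tcn2, the blood carrier of the same vitamin, differed by -1.63 (SE 0.09) at day 9 and -1.34 (SE 0.09) at day 12.

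The nucleoside carriers differed from each other in course. Slc28a1, which prefers pyrimidine nucleosides, stood at -0.82 (SE 0.19) at day 6 (limma adjusted p = 0.0784), -2.12 (SE 0.19, limma adjusted p = 1.21e-05, 4.36-fold lower) at day 9 and -2.24 (SE 0.19, limma adjusted p = 6.23e-06, 4.71-fold lower) at day 12. Slc28a2, which prefers purine nucleosides, had 9.37 and 10.27 in KO against 9.58 and 9.18 in WT at day 6. Slc28a2 at day 9 had 10.26 and 10.48 in KO against 9.66 and 9.69 in WT, and at day 12 9.46 and 9.06 in KO against 9.77 and 9.71 in WT. It was higher in both KO arrays at day 9, by 0.70 (SE 0.24) with a limma adjusted p of 0.0492, and leaving out any 1 array of day 9, WT day 6 or WT day 12 ended that call (0.59 to 0.81). It was lower in both at day 12 without passing, at -0.48 (SE 0.24). Within KO it fell by 1.11 between days 9 and 12 (SE 0.24, limma adjusted p = 0.0085).

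Among organic cation carriers, Slc22a4, known for ergothioneine, had 8.36 and 8.30 in KO against 8.45 and 8.74 in WT at day 6. Slc22a4 at day 9 had 6.87 and 6.72 in KO against 8.96 and 8.96 in WT, and at day 12 6.51 and 6.43 in KO against 9.07 and 8.68 in WT. It differed by -2.17 (SE 0.13, limma adjusted p = 6.84e-07, 4.49-fold lower) at day 9 and -2.41 (SE 0.13, limma adjusted p = 2.05e-07, 5.3-fold lower) at day 12. Slc22a5, the carnitine carrier, differed by -0.73 (SE 0.13) at day 9 and by -0.20 (SE 0.13) at day 12 without passing. Slc22a18 passed on no day (0.10 to 0.25) with all arrays as deposited. It passed at day 9 after quantile normalization (0.37, limma adjusted p = 0.0476) and at day 12 without KO replicate 2 (0.42). Of the 4 metal carriers, 2 fell at day 9 and 1 at day 12. Slc39a5, a basolateral zinc importer, differed by -0.55 (SE 0.13) at day 9 and -1.03 (SE 0.13) at day 12; the day 9 call ended without WT replicate 2 (-0.51, limma adjusted p = 0.0565). The brush border zinc importer Slc39a4 had 9.79 and 9.82 in KO against 9.66 and 9.96 in WT at day 6. Slc39a4 at day 9 had 9.51 and 9.53 in KO against 9.82 and 9.90 in WT, and at day 12 9.55 and 9.52 in KO against 9.88 and 9.61 in WT. Its difference of -0.34 (SE 0.12) at day 9 passed narrowly (limma adjusted p = 0.0478), and leaving out any 1 array of day 9 or of KO day 6 ended the call (-0.37 to -0.30). Slc30a10, a manganese exporter, stood at -0.20 (SE 0.17) and -0.47 (SE 0.17) without passing, and passed at day 12 without KO replicate 2 (-0.80, limma adjusted p = 0.00108). Trpv6, the calcium channel of the brush border, lay between 4.61 and 5.08 on all arrays and passed on no day; S100g, the calcium-binding protein of enterocytes, differed by -0.70 (SE 0.21) and -0.89 (SE 0.21).

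The 6 transporters that fell at day 6 were thus Slc5a4a, Slc5a11, Slc1a1, Slc34a2, Slc46a1 and Cubn, of different substrates, and each fell at all 3 days. The calls of Slc5a11 and Slc1a1 held without any 1 array. With the smooth muscle mean as a covariate these were the 2 that passed, and the others stood at -0.98 for Slc5a4a, -1.23 for Slc34a2, -0.89 for Slc46a1 and -1.56 for Cubn; the part of the gut wall in the day 6 values was not tested further. A further 27 transporters fell at days 9 and 12, and 5 fell at day 9 without passing at day 12.

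Between days 6 and 9 within KO, 34 of 47 transporters fell and 1, the dim Slc6a14, rose, against 14.5% and 10% of all genes. With the smooth muscle mean as a covariate, 29 transporters and 10.5% of all genes passed in either direction, against 35 and 24.5% without it. From day 9 to day 12 within KO, 10 fell (21.3%) and 9 rose (19.1%), against 8.81% and 14.1% of all genes, so the share that rose was near that of all genes. Those that rose were Slc2a2, Slc5a9, Slc6a20a, Slc16a1, Cftr, Cubn, Slc20a1, Slc20a2 and Slc13a1, by 0.36 to 1.56. Those that fell were Slc6a19, Slc16a10, Slc5a8, Slc5a12, Slc13a2, Slc9a2, Slc26a6, Slc23a1, Slc28a2 and Slc39a5, with changes of -2.03 to -0.38. Carboxylate carriers gave 3 of the 10 late falls, and the phosphate and sulfate group 3 of the 9 late rises. The 2 KO mice of day 12 differed in level. KO replicate 2 was higher than replicate 1 for 34 of 47 transporters, with a median gap of 0.24, against -0.02 over all genes. It was higher by over 0.5 for 16, against 3.58% of all genes. At day 9, KO replicate 2 was higher for 40 of 47, with a median gap of 0.20, against 0.01 over all genes. The gap was over 0.5 for 9 transporters, against 1.76% of all genes. The smooth muscle mean of that replicate was 8.22, against 9.35 in replicate 1, and the part of that in the gap was not tested. Counts within KO were also sensitive to the array: the 19 changes from day 9 to day 12 became 11 without KO day 9 replicate 1, while the share of all genes called was 10.3%, against 22.9% with all arrays.

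**Figure D4:**
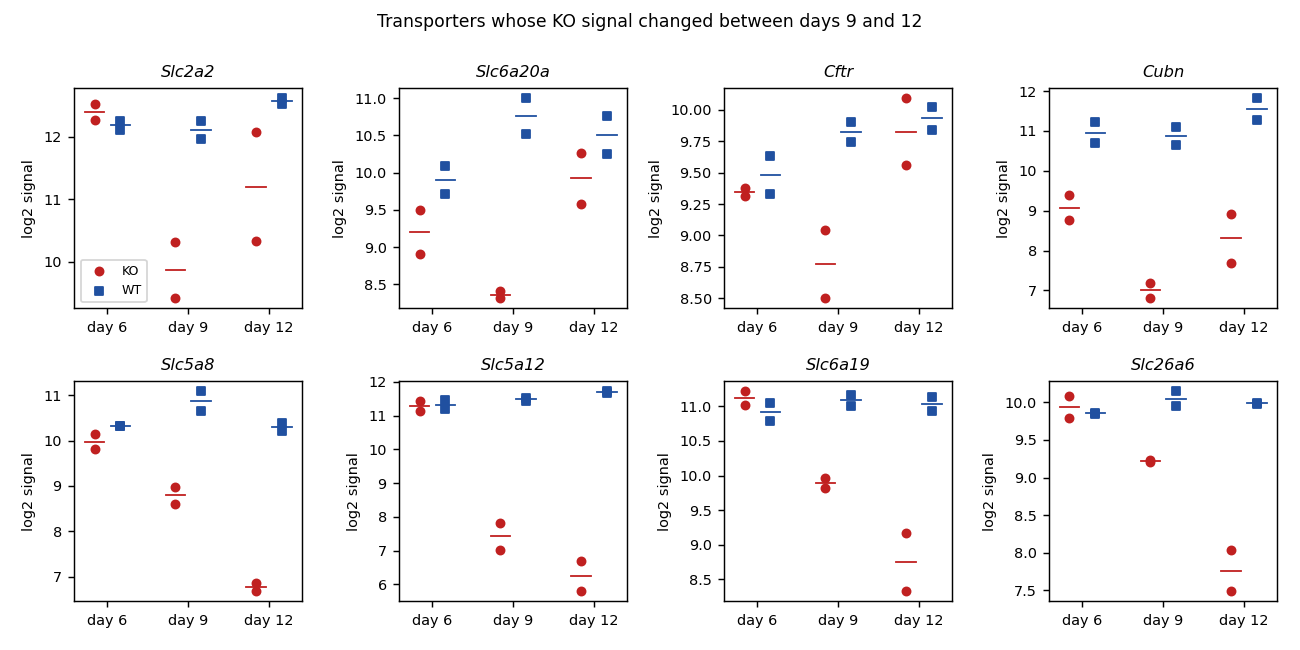
Log2 signal (vertical axes, a scale per gene) in each array of 8 transporters whose KO signal changed between days 9 and 12; circles are KO, squares WT, lines group means of 2 mice. In the upper row (Slc2a2, Slc6a20a, Cftr, Cubn) KO was higher at day 12 than at day 9, and in the lower row (Slc5a8, Slc5a12, Slc6a19, Slc26a6) lower.

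None of the 47 passed the limma F test for change over days in WT, against 0.0201% of all genes; 11 of them (23.4%) had an unadjusted p under 0.05, against 10% of all genes, with the smallest for Slc34a2 (adjusted p = 0.105). The range over the 6 WT arrays had a median of 0.51 and was widest for Slc34a2 (1.89), Slc6a20a (1.29) and Cubn (1.17).

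Other genes of transport and supply were taken from lists chosen with earlier results known. Of 16 measured partners and neighbours of the carriers, 0 passed at day 6, 9 fell and 1 rose at day 9, and 8 fell and 4 rose at day 12. Pdzk1, a scaffold of brush border carriers, had 9.56 and 9.42 in KO against 9.90 and 10.01 in WT at day 6. Pdzk1 at day 9 had 7.39 and 7.10 in KO against 9.91 and 10.09 in WT, and at day 12 6.28 and 6.72 in KO against 10.22 and 9.99 in WT. Both KO arrays were lower on every day, and the differences passed at day 9, at -2.75 (SE 0.15, limma adjusted p = 3.54e-07, 6.73-fold lower), and day 12, at -3.60 (SE 0.15, limma adjusted p = 3.17e-08, 12.2-fold lower). Khk, which phosphorylates fructose, differed by -3.20 (SE 0.23) at day 9 and -2.65 (SE 0.23) at day 12, and the vitamin D receptor Vdr by -2.32 (SE 0.12) and -2.87 (SE 0.12). The sodium pump subunit Atp1b1 did not pass at day 9, at -0.19 (SE 0.09), or day 12, at -0.20 (SE 0.09). The metallothioneins Mt1 and Mt2, which bind zinc and copper, rose at day 12, by 1.17 (SE 0.14) and 2.28 (SE 0.32).

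Transporters listed under general cell supply more often rose than fell. The list is mixed and also holds the ion carriers Slc12a2 and Slc4a4 and the mitochondrial Slc25a5. Of 19 measured, 1 rose and 0 fell at day 6, 8 rose and 3 fell at day 9, and 13 rose and 3 fell at day 12; their medians were 0.16, 0.32 and 0.45. Slc2a1, the glucose carrier of most cells, had 9.40 and 9.51 in KO against 8.75 and 8.91 in WT at day 6. Slc2a1 at day 9 had 10.65 and 11.01 in KO against 8.91 and 8.81 in WT, and at day 12 11.40 and 11.16 in KO against 8.92 and 8.81 in WT. It was higher in both KO arrays on each day, without passing at day 6 (limma adjusted p = 0.0505), and differed by 1.97 (SE 0.13, limma adjusted p = 1.16e-06, 3.91-fold higher) at day 9 and 2.41 (SE 0.13, limma adjusted p = 1.69e-07, 5.33-fold higher) at day 12, opposite to Slc2a2, Slc2a5 and Slc2a7. Slc16a3, which exports lactate, had 8.21 and 8.38 in KO against 7.56 and 7.65 in WT at day 6. Slc16a3 at day 9 had 9.48 and 9.78 in KO against 7.67 and 7.75 in WT, and at day 12 8.71 and 8.74 in KO against 7.76 and 7.66 in WT. It rose on all 3 days, by 0.69 (SE 0.11), 1.92 (SE 0.11) and 1.01 (SE 0.11), opposite to Slc5a8 and Slc5a12. Slc7a5, a light chain for large neutral amino acids, rose by 0.70 (SE 0.21) and 1.16 (SE 0.21), opposite to its relative Slc7a8. The cystine carrier Slc7a11 differed by 3.80 (SE 0.29) and 4.84 (SE 0.29). Slc12a2, the basolateral chloride importer of secretory cells, Slc4a4, a bicarbonate carrier, and Slc25a5, a mitochondrial nucleotide carrier, fell at days 9 and 12, with differences for Slc12a2 of -1.02 (SE 0.12) and -0.80 (SE 0.12).

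Of 10 measured transcription factors of enterocytes, 0 passed at day 6, 7 fell at day 9 and 7 at day 12, not all of them the same genes, with medians of -0.51 on both days. Maf, which is linked to the nutrient uptake genes of mature enterocytes, had 10.74 and 10.60 in KO against 11.15 and 11.15 in WT at day 6. Maf at day 9 had 8.92 and 9.30 in KO against 10.96 and 11.04 in WT, and at day 12 8.76 and 9.30 in KO against 10.90 and 11.19 in WT. It differed by -0.48 (SE 0.17) at day 6 (limma adjusted p = 0.284), -1.89 (SE 0.17, limma adjusted p = 1.34e-05, 3.71-fold lower) at day 9 and -2.02 (SE 0.17, limma adjusted p = 6.23e-06, 4.05-fold lower) at day 12. Hnf4g differed by -1.10 (SE 0.17) and -0.58 (SE 0.17), Hnf4a by -0.41 (SE 0.12) at day 9 and -0.26 (SE 0.12) at day 12 (limma adjusted p = 0.137), and Gata4 by -0.83 (SE 0.15) and -0.78 (SE 0.15).

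**Figure D5:**
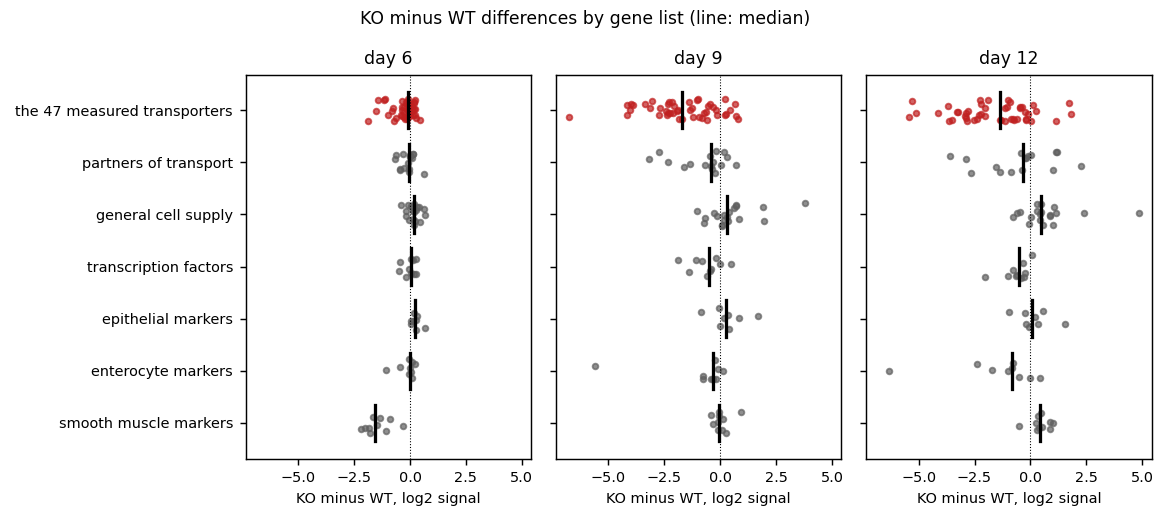
KO minus WT differences of log2 signal (horizontal axis) for the 47 transporters and 6 other gene lists (rows) at days 6, 9 and 12; each point is a gene and each line a list's median. The transporters have medians of -0.11, -1.69 and -1.37, while general supply carriers have medians of 0.16, 0.32 and 0.45 and smooth muscle markers lie at -1.57 at day 6.

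The genes with a pattern most like that of Slc34a2, by Pearson correlation over the 12 arrays, were Atp5c1 (r = 0.994), Slc35f2 (0.991), Fads2 (0.991), Bend7 (0.991) and Tcn2 (0.990). For Slc5a1 they were Mme (0.994), Epb41l3 (0.990), the amino acid carrier Slc7a8 (0.990), Btnl2 (0.989) and Lta4h (0.989). These are descriptions: all points share the same 12 mice, in which the 4 KO arrays of days 9 and 12 were the low ones for both Slc34a2 and Slc5a1.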

How the data were processed

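RNA of whole jejunum from 12 mice was hybridised to Affymetrix Mouse Gene 1.0 ST arrays, per the labels. The values are log2 signals as deposited by the authors; the submitters' processing notes name R 3.5 and limma, and how background and normalization were handled is not given there. Array medians lay between 5.95 and 6.02, and the number of arrays, 2 per group, limits the precision. Of 35556 probe sets, 21789 carried 1 gene symbol in the platform annotation, 1621 several and 12146 none; the probe set with the highest mean stood for each of 19938 genes. A mean per genotype and day was fitted with limma 3.58.1 in R 4.3.3 over all 12 arrays (lmFit, eBayes, 6 residual and 5.23 prior degrees of freedom), with Benjamini-Hochberg adjustment over all genes. The fit was tested on simulated data with independent noise per gene and 200 genes changed in KO at day 9. There, 89.2% of 2-fold changes passed and 5.0% of calls were false. In the real data 29.7% of genes passed at day 9, and shifts shared between genes were not simulated. The simulation therefore does not give the error of the calls reported here. The transporters and all lists were chosen with earlier results of these data known, as was the limit for folds after seeing values. All measured transporters are named; other genes come from the lists, or as the 5 most correlated with Slc34a2 and with Slc5a1. Alternatives were the normalization, probe set choice, filter, moderation, covariates, a replicate block, the groups fitted and leaving out each array. Promoter windows are RefSeq's (GRCm38.p6), the first start where a gene had several (6 of 40).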

Additional observations from a re-analysis of the deposited data

Results flagged for a closer look

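The KO minus WT difference changed between days for many transporters, by limma's test of the change itself (adjusted p under 0.05 over all genes). From day 6 to day 9, 32 of 47 changed toward lower KO signal and 0 toward higher, against 9.19% and 3.52% of all genes. Among sugar carriers the change was -1.87 for Slc5a1, -1.72 for Slc5a4a, -3.00 for Slc5a11, -2.46 for Slc2a2, -2.46 for Slc2a5 and -2.50 for Slc2a7. Amino acid and peptide carriers changed by -1.73 for Slc15a1, -1.40 for Slc6a19, -1.71 for Slc6a20a, -1.18 for Slc7a9, -1.01 for Slc7a7, -2.95 for Slc7a8, -2.46 for Slc1a1, -2.08 for Slc16a10, -2.41 for Slc43a2 and -2.80 for Slc36a1. Carboxylate carriers changed by -1.72 for Slc5a8, -4.02 for Slc5a12, -0.75 for Slc16a1 and -1.88 for Slc13a2. In the phosphate and sulfate group it was -5.66 for Slc34a2. Among the ion exchangers, the change was -1.75 for Slc9a3, -0.70 for Slc9a2, -1.26 for Slc26a3 and -0.91 for Slc26a6. For vitamin uptake genes it was -4.07 for Slc23a1, -1.56 for Slc46a1, -1.48 for Slc52a3 and -2.00 for Cubn. A nucleoside carrier changed by -1.30 for Slc28a1. Organic cation carriers changed by -1.90 for Slc22a4 and -0.90 for Slc22a5. From day 9 to day 12, 3 changed toward lower and 4 toward higher KO signal, against 2.02% and 4.06% of all genes. The change was 1.82 for Slc6a20a, -1.46 for Slc5a8, 1.46 for Slc34a2, 0.74 for Slc20a2, -1.39 for Slc26a6, -0.94 for Slc23a1 and 0.94 for Slc52a3. For Slc34a2, WT signal was lower by 1.48 at day 12 than at day 9 without passing (limma adjusted p = 0.0972), and KO differed by -0.02.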

How the results depend on the processing

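With the smooth muscle mean as a covariate, 2 transporters passed at day 6 (0.0853% of all genes) and 22 the genotype-by-day interaction (8.78%). Fitting only the groups compared, 9 passed between KO day 12 and KO day 9 (7.07%). With the epithelial mean as a covariate, chosen after seeing the data, 3 passed at day 6 (0.211%), 17 at day 9 (5.88%), 22 on average over days (8.27%), 12 between KO day 9 and KO day 6 (2.46%) and 4 between KO day 12 and KO day 9 (2.7%). As deposited and without covariates, the shares of all genes were 1.03%, 29.7%, 32.6%, 24.5% and 22.9%, and 18.5% for the interaction. The causes were not tested. Without 1 array, counts ran from 2 to 6 at day 6, 36 to 41 at day 9, 34 to 41 at day 12, 39 to 42 on average, 31 to 38 between KO days 6 and 9, 11 to 20 between KO days 9 and 12, 29 to 39 for the interaction and 0 to 1 for WT days. At day 6, both the count of transporters and the share of all genes called were lower without any 1 array of that day. With the replicate number as a block, 4 transporters passed at day 6 (0.732% of all genes). At days 9 and 12, 39 (29.7%) and 37 (27.4%) passed, and 41 (32.5%) on average over days. Between KO days 35 (24.7%) and 19 (22.9%) passed, with 37 (18.5%) for the interaction and 0 (0%) for WT days. The limma calls of Slc46a1 (adjusted p = 0.0562) and Cubn (0.0572) at day 6 were lost. So were those of Slc28a2 (0.059) and Slc39a4 (0.0588) at day 9. Of 15 pairs of groups, 4 had same-numbered arrays deviating together at r above 0.1 (range -0.15 to 0.35); since the others did not, the numbers were not taken as pairing the mice, and some shared deviation was not excluded. For single transporters, 1632 of 1692 values without 1 array and 1072 of 1122 under other settings kept direction and side of the threshold; 53 and 47 lost the call, and 7 and 3 gained it. No called value changed sign, while 54 of all 2814 alternative values, all of differences that did not pass, had the other sign. Of weak calls, Slc39a4 at day 9 stood at -0.15 after quantile normalization.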

Other observations

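A few genes outside the 48, held here as markers of gut regions, rose where most of the listed transporters fell. Slc40a1, the basolateral exporter of iron, had 6.06 and 6.13 in KO against 6.09 and 6.37 in WT at day 6, 10.52 and 11.01 in KO against 6.98 and 7.04 in WT at day 9, 11.74 and 11.54 in KO against 6.98 and 6.84 in WT at day 12. It did not separate at day 6, and the KO arrays were far above WT later, by 3.76 (SE 0.15, limma adjusted p = 3.56e-08) at day 9 and 4.73 (SE 0.15, limma adjusted p = 3.96e-09) at day 12. Cybrd1, the brush border reductase of iron, had 6.50 and 6.44 in KO against 6.53 and 6.73 in WT at day 6, 7.72 and 8.35 in KO against 6.86 and 6.80 in WT at day 9, 10.55 and 10.75 in KO against 6.98 and 6.39 in WT at day 12, with differences of 1.20 (SE 0.21, limma adjusted p = 0.00118) at day 9 and 3.97 (SE 0.21, limma adjusted p = 1.38e-07) at day 12. Slc10a2, the sodium bile acid carrier of the ileum, had 9.29 and 9.10 in KO against 7.51 and 8.08 in WT at day 6, 10.57 and 10.45 in KO against 6.82 and 6.62 in WT at day 9, 9.22 and 9.33 in KO against 6.08 and 5.79 in WT at day 12. KO was higher on each day without overlap, by 1.40 (SE 0.17, limma adjusted p = 0.00334) at day 6, 3.79 (SE 0.17, limma adjusted p = 7.36e-08) at day 9 and 3.34 (SE 0.17, limma adjusted p = 1.05e-07) at day 12. The WT signal of Slc10a2 also changed over days (limma F test, adjusted p = 0.0184). Its WT means were 7.8, 6.72 and 5.94 at days 6, 9 and 12, against 9.19, 10.51 and 9.27 in KO. These genes were singled out after their values were seen.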
